A study of Homo sapiens with 6 samples.

Results

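The 8 genes described here are ZHX1, ZHX2, ZHX3, HOMEZ, NFYA, NFYB, NFYC and PLCG1. ZHX1, ZHX2 and ZHX3 encode related zinc finger and homeobox proteins, and HOMEZ encodes a protein with related homeodomains. NFYA, NFYB and NFYC encode the subunits of the transcription factor NF-Y, and PLCG1 overlaps ZHX3 on the opposite strand. The 8 genes were taken by symbol from the deposited table of raw counts, in which they are 8 of 26485 gene symbols. RNA was sequenced in 6 bulk libraries of EndoC-βH1, an established human pancreatic beta cell line that makes insulin. All lines were made with lentiCRISPRv2, a lentivirus that delivers Cas9 and antibiotic resistance. In the 3 libraries called Empty (genotype label WT) this vector held no guide, and in the 3 libraries called sgZHX3-3 (genotype label ZHX3 KO) it held a guide that targets ZHX3 in its first coding exon, and stable lines were obtained by antibiotic selection. Replicates numbered 1 to 3 are called biological in the sample titles, which leave unsaid whether each is a separately made line, so p-values may measure only the spread between cultures. The sgZHX3-3 libraries all carry the same guide, so an effect of losing ZHX3 and any other effect of that guide cannot be told apart.

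ZHX proteins are nuclear transcriptional regulators with zinc fingers followed by several homeodomains. They pair with themselves and with each other, bind the NF-YA subunit, and are mostly known as repressors. HOMEZ carries related homeodomains and a leucine zipper. NF-Y is a trimer that binds the DNA motif CCAAT in many promoters: NF-YB and NF-YC form a pair through histone-fold domains, and NF-YA joins that pair and contacts the motif. Phospholipase C gamma 1, the product of PLCG1, is activated below receptor tyrosine kinases and splits a membrane phosphoinositide into inositol trisphosphate, which releases stored calcium, and diacylglycerol, which activates protein kinase C.

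Sequences are printed for the start of the ZHX3 reading frame, since the labels place the guide in the first coding exon, and for the promoters of the 3 genes that show the range from no CCAAT to several. The first is the opening 90 coding bases of transcript ENST00000544979.6 (GENCODE 29, GRCh38), with the start codon in capitals. In that transcript the first coding exon is exon 4 of 5, on the minus strand at chr20:41202283-41205066, and it holds 2634 of 2907 coding bases (90.61%). Where the guide lies within the exon was not analysed here.
ZHX3 coding start: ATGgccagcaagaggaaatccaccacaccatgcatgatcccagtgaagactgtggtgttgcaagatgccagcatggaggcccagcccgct
The promoters are the 200 bases before a RefSeq transcription start (GRCh38.p14), with CCAAT in capitals. They lie at chr20:41317732-41317931 on the minus strand for ZHX3, chr1:40691504-40691703 on the plus strand for NFYC, and chr14:23286133-23286332 on the minus strand for HOMEZ. This HOMEZ start lies inside the GENCODE gene, downstream of the first coding exon of its transcript with the longest frame (chr14:23293531-23293688).
ZHX3 promoter: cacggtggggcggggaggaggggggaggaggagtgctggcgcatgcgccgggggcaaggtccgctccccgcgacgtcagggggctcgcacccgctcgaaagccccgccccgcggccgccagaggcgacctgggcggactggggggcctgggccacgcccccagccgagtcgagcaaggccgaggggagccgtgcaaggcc
NFYC promoter: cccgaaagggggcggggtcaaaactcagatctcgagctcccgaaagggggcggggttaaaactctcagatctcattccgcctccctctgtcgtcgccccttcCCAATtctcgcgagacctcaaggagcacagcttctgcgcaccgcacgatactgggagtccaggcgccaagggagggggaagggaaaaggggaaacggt
HOMEZ internal start: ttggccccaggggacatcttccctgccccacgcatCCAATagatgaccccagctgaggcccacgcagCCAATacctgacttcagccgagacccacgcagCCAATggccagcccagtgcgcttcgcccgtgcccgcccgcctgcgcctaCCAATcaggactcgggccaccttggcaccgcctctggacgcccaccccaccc
CCAAT and its reverse complement ATTGG were searched on both strands in windows from 250 bases before to 50 bases after each RefSeq start, and no other motif was searched. At least 1 match was found in 34.6% of 35116 windows. The HOMEZ window held 4, with first bases at 165, 133, 101 and 52 bases before the start, a number reached by 0.991% of windows. Of 3 NFYC windows, the printed one held 1, at 98 bases before the start, and the others held 3 and 1. The NFYA window held 1, and the PLCG1 window and both ZHX3 windows held 0. Windows were matched for 5 of the 8 genes. A match is only an occurrence of these letters.

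All 8 genes passed the low-count filter of edgeR, as did 16199 symbols in all, in libraries of 45101454 to 61051884 counts. Values are CPM, counts scaled to a common library size after TMM adjustment, and a gene was called at an adjusted p below 0.05 in edgeR's quasi-likelihood test with Benjamini-Hochberg adjustment over all tested genes. Of those genes 7.11% were called higher and 4.98% lower in sgZHX3-3, or 904 higher and 1272 lower with library totals in place of TMM. Each of 12 beta cell markers was detected, among them the insulin gene INS, and 16 of 29 markers of other cell types stayed below 1 CPM in every library. The summed level of 8 heat shock genes differed within the control group, at 2098, 2790 and 3044 CPM in Empty 1, 2 and 3 against 2097 to 2422 CPM in sgZHX3-3, and its part in the results below was not tested. Results were therefore also computed without Empty 2 and 3, which leaves Empty 1 as the only control library. A call lost in that setting cannot be told apart from an effect of the lost replication.

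Among the 8 genes, ZHX3 was called higher in sgZHX3-3 and NFYC lower, and the other 6 were not called. The count of 1 higher and 1 lower of 8 stands beside 7.11% and 4.98% of all tested genes. The groups did not overlap for ZHX2, ZHX3, NFYC and PLCG1, which is 4 of 8 against 32.0% of all tested genes.

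**Figure D1:**
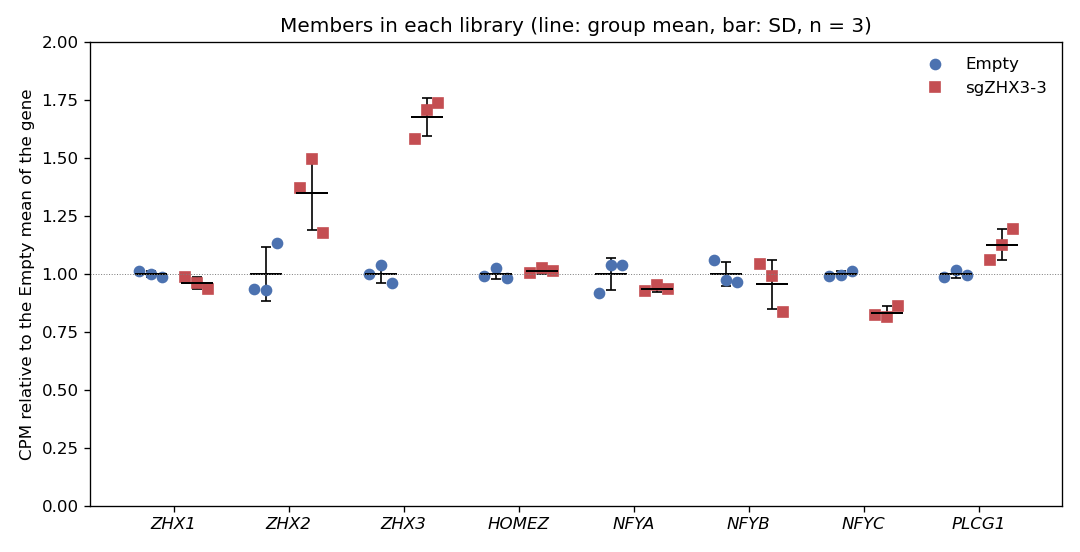
CPM of the 8 genes in each of the 6 libraries, divided by the gene's own mean in Empty; points are libraries (circles Empty, squares sgZHX3-3), horizontal lines group means and bars the SD (n = 3). The ZHX3 squares, around a mean of 1.68, lie farthest from the line at 1, and the NFYC squares lie below it in every sgZHX3-3 library.

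ZHX3, the gene targeted by the guide, had 105.6, 109.6 and 101.2 CPM in Empty 1, 2 and 3 and 167.0, 180.0 and 183.3 CPM in sgZHX3-3 libraries 1, 2 and 3, from counts of 4938, 6484, 4969, 7465, 8976 and 11046. Every sgZHX3-3 library was above every Empty library, with a wide gap between the groups. The means were 105 ± 4.19 and 177 ± 8.62 CPM (SD, n = 3 each), a 1.68-fold rise (95% interval 1.54 to 1.82; log2 fold change 0.75, standard error 0.0566, edgeR adjusted p = 1.62e-05). It was called in each of 16 alternative analyses, with a log2 fold change between 0.67 and 0.78, and without Empty 2 and 3 the adjusted p was 0.00558. The direction goes against reading the genotype label as a loss of the RNA; counts per gene do not show the edit, and the protein was not analysed here. Directions below therefore refer to the libraries labelled sgZHX3-3.

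ZHX1, which pairs with ZHX3, had 119.5, 118.3 and 116.8 CPM in Empty 1, 2 and 3 and 116.8, 113.8 and 110.4 CPM in the sgZHX3-3 libraries. The groups touched at 116.8 CPM. The log2 fold change was −0.06 (standard error 0.0509, 95% interval −0.17 to 0.05, edgeR adjusted p = 0.507), so the interval allowed at most a change from 0.891-fold to 1.04-fold.

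ZHX2, a repressor known from fetal liver genes such as AFP, was the family member with the lowest level. It had 2.82, 2.81 and 3.42 CPM in Empty 1, 2 and 3 and 4.14, 4.51 and 3.55 CPM in sgZHX3-3, from 132 to 225 counts per library. The groups did not overlap, but Empty 3 and sgZHX3-3 library 3 lay close together. The difference of 1.35-fold (95% interval 1.09 to 1.67; log2 fold change 0.43, standard error 0.142) was not called by edgeR (adjusted p = 0.0669), nor in any of 16 alternatives, whose adjusted p ranged from 0.0541 to 0.262. By log2 fold change ZHX2 stood next to ZHX3 among the 8 genes, and its sign was kept in 16 of 16 alternatives.

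HOMEZ had 17.4, 18.0 and 17.2 CPM in Empty 1, 2 and 3 and 17.6, 18.0 and 17.8 CPM in the sgZHX3-3 libraries. The groups overlapped. Its log2 fold change was 0.02 (standard error 0.0685, 95% interval −0.13 to 0.17, edgeR adjusted p = 0.889).

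Levels of different genes were compared as CPM per kb of annotated exon. In Empty the order was PLCG1, ZHX1, NFYA, NFYB, ZHX3, NFYC, HOMEZ and ZHX2, and in Empty no neighbours in this order overlapped between libraries. The level fell from 25.6 CPM per kb for PLCG1 and 17.5 for ZHX1 to 3.17 for HOMEZ and 0.640 for ZHX2. ZHX1 was above 81.1% of 15083 tested genes with a length and ZHX2 above 17.7%. In sgZHX3-3 the level of ZHX3 per kb (15.2 ± 0.741, SD, n = 3) overlapped that of NFYA (14.8), while in Empty it had been below NFYA (9.07 ± 0.361 against 15.8).

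Within the ZHX group, ZHX3 RNA took a larger share in every sgZHX3-3 library. ZHX3 held 33.1%, 34.2% and 32.5% of the summed CPM per kb of ZHX1, ZHX2 and ZHX3 in Empty 1, 2 and 3 and 44.1%, 46.5% and 47.9% in sgZHX3-3. The mean share was higher by 12.9 percentage points and the groups did not overlap (33.3% ± 0.832 against 46.2% ± 1.93, SD, n = 3 each; exact two-sided permutation p = 0.1, the smallest that 20 splits allow; 0.2 adjusted over 4 ratios). ZHX1 held 64.4% in Empty and 51.2% in sgZHX3-3, and ZHX2 held 2.35% and 2.62%. The summed level of the 3 genes was 27.2 ± 0.436 CPM per kb in Empty and 32.9 ± 0.381 in sgZHX3-3 (SD, n = 3 each). These shares rest on ZHX3 itself and on the annotated exon lengths; with raw counts the share of ZHX3 was 45.7% to 47.5% in Empty and 58.0% to 61.7% in sgZHX3-3.

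**Figure D2:**
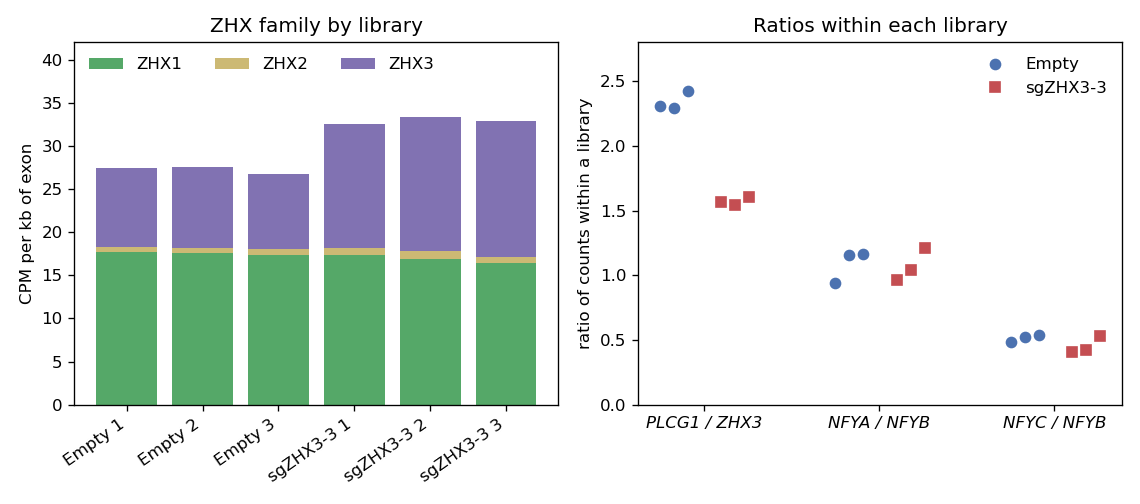
Left, CPM per kb of exon of ZHX1, ZHX2 and ZHX3 stacked for each library; right, ratios of counts within each library (circles Empty, squares sgZHX3-3). The ZHX3 part of the stack is larger in all sgZHX3-3 libraries, and the PLCG1 to ZHX3 ratio is 2.29 to 2.42 in Empty against 1.54 to 1.61, while the NFYA to NFYB and NFYC to NFYB ratios overlap between groups.

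The ZHX genes and HOMEZ hold most of their reading frame in 1 exon, unlike the other 4 genes. In GENCODE 29 the transcript with the longest reading frame carries all coding bases of ZHX1 and of ZHX2 in 1 exon, and the largest coding exon holds 90.61% in ZHX3 and 97.22% in HOMEZ. The largest holds 16.71% in NFYA, 31.88% in NFYB, 31.22% in NFYC and 5.81% in PLCG1, whose frame is spread over 32 exons. The reading frames run to 873, 837, 969 and 552 codons in ZHX1, ZHX2, ZHX3 and HOMEZ, without the stop codon.

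NFYC, a histone-fold subunit of NF-Y, had 28.47, 28.51 and 29.02 CPM in Empty 1, 2 and 3 and 23.6, 23.4 and 24.8 CPM in sgZHX3-3 libraries 1, 2 and 3. All sgZHX3-3 libraries were lower than all Empty libraries, and the Empty libraries lay within 1 CPM of each other, Empty 1 included. The level was 28.7 ± 0.307 CPM in Empty and 23.9 ± 0.759 CPM in sgZHX3-3 (SD, n = 3 each), 0.834-fold (95% interval 0.758 to 0.917; log2 fold change −0.26, standard error 0.0634, edgeR adjusted p = 0.0188). It was called in 11 of 16 alternatives and had the same sign in 16 of 16. Leaving out libraries accounts for 4 of the 5 losses: the call was lost without Empty 2 (edgeR adjusted p = 0.0784), without Empty 3 (0.103), without sgZHX3-3 library 2 (0.108) and without both Empty 2 and 3 (0.269), while the log2 fold change stayed between −0.30 and −0.25.

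NFYB, the partner of NF-YC in the histone-fold pair, had 59.2, 54.2 and 53.9 CPM in Empty 1, 2 and 3 and 58.1, 55.2 and 46.6 CPM in sgZHX3-3. The groups overlapped, and sgZHX3-3 library 3 was the lowest of the 6. The log2 fold change was −0.07 (standard error 0.0781, 95% interval −0.24 to 0.10, edgeR adjusted p = 0.625). NFYA, the subunit that contacts the motif and binds ZHX proteins, had 55.5, 62.8 and 62.8 CPM in Empty and 55.9, 57.5 and 56.3 CPM in sgZHX3-3. Here Empty 1 lay with the sgZHX3-3 libraries and Empty 2 and 3 above them. The log2 fold change was −0.09 (standard error 0.0618, 95% interval −0.23 to 0.04, edgeR adjusted p = 0.349).

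NFYC was the NF-Y subunit with the lowest level per kb, at 4.79 CPM per kb in Empty against 15.8 for NFYA and 11.3 for NFYB. The ratio of NFYC to NFYB counts was 0.481, 0.526 and 0.538 in the Empty libraries, against 0.406, 0.423 and 0.531 in sgZHX3-3. The ranges overlapped, with library 3 of sgZHX3-3 among the Empty libraries. The log2 ratio differed by −0.19 between the group means (exact two-sided permutation p = 0.3, adjusted 0.4). For NFYA to NFYB the difference was −0.02 (exact permutation p = 1). A change in the proportion of subunits was thus not shown, and the smallest p this design allows is 0.1.

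PLCG1 had 243.7, 251.1 and 245.4 CPM in Empty 1, 2 and 3 and 261.2, 277.8 and 294.7 CPM in sgZHX3-3. The groups did not overlap, and the sgZHX3-3 libraries were more spread out than the Empty libraries. The means were 247 ± 3.89 and 278 ± 16.8 CPM (SD, n = 3 each), 1.13-fold (95% interval 1.04 to 1.22; log2 fold change 0.17, standard error 0.0546), which edgeR did not call (adjusted p = 0.0581). It was called in 3 of 16 alternatives: with DESeq2 (adjusted p = 0.0400), with edgeR after removal of a trend with gene span (0.0464) and with edgeR without sgZHX3-3 library 1 (0.0348). After removal of trends with transcript length and GC content the log2 fold change was 0.084 (adjusted p = 0.224). The sign was the same in 16 of 16.

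**Figure D3:**
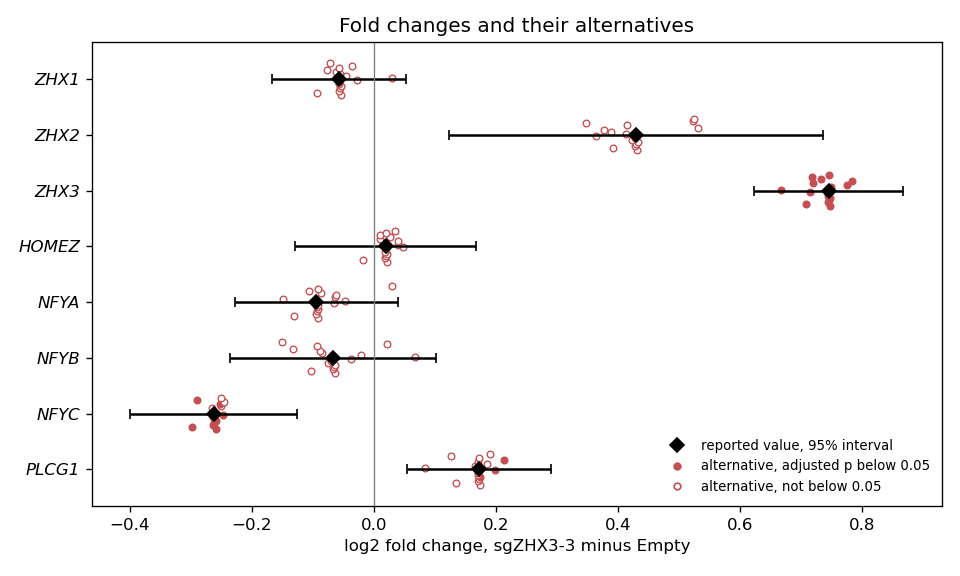
Log2 fold change (sgZHX3-3 minus Empty) of each of the 8 genes, with the reported value as a diamond with its 95% interval and the 16 alternatives as circles, filled where the adjusted p was below 0.05. ZHX3 stays between 0.67 and 0.78, NFYC between −0.30 and −0.25, and ZHX1, HOMEZ, NFYA and NFYB have values on both sides of 0.

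ZHX3 (ENSG00000174306.21, chr20:41178448-41317672, minus strand) and PLCG1 (ENSG00000124181.14, chr20:41136960-41196801, plus strand) run towards each other, and their 3′ ends overlap by 18354 bases. Only 268 of those bases are exonic in both genes, 2.31% of the exon bases of ZHX3 and 2.78% of those of PLCG1. The libraries are stranded by the labels' protocols, but no source used here says whether counting used the strand, so reads from the shared bases cannot be assigned with certainty. The difference in level was 71.3 CPM for ZHX3 and 31.1 CPM for PLCG1. PLCG1 counts were 2.31, 2.29 and 2.42 times those of ZHX3 in Empty 1, 2 and 3 and 1.56, 1.54 and 1.61 times in sgZHX3-3. The log2 ratio differed by −0.58 with no overlap of the groups (exact two-sided permutation p = 0.1, the smallest possible, and adjusted 0.2). This ratio rests mostly on ZHX3 itself (log2 fold change 0.75, against 0.17 for PLCG1), so it restates the ZHX3 rise and is not a separate result.

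The other nearest neighbours of ZHX3 were not called. PLCG1-AS1, an antisense RNA at the start of PLCG1, had a log2 fold change of 0.32 at a low level, 3.53 CPM in Empty and 4.39 CPM in sgZHX3-3 (edgeR adjusted p = 0.191). TOP1, the topoisomerase gene before PLCG1, stood at 0.03 (0.783). Beyond the ZHX3 start, LPIN3, a phosphatidate phosphatase gene, stood at 0.11 (0.316), EMILIN3 at 0.20 (0.162) and the chromatin remodeller gene CHD6 at 0.14 (0.181). Across all tested genes the median was −0.002.

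**Figure D4:**
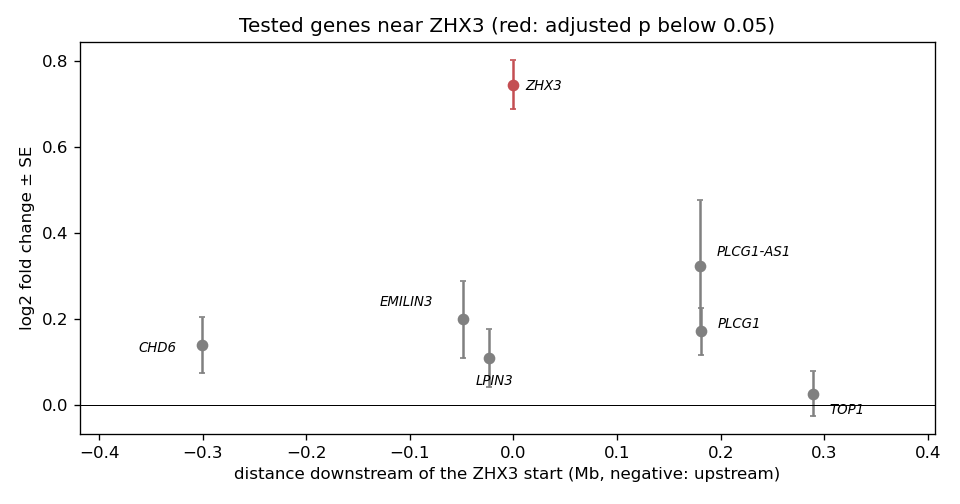
Log2 fold change with its standard error of ZHX3 and its nearest tested neighbours, against distance from the ZHX3 start in Mb, positive in the direction in which ZHX3 is transcribed; red marks a gene called by edgeR. ZHX3 is at 0.75, and the other genes lie between 0.03 and 0.32.

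Genes that overlap the other members were also examined. RNF212B shares 655 exon bases with HOMEZ on the opposite strand, 11.84% of the HOMEZ exons, and had a log2 fold change of −0.64 at few counts (edgeR adjusted p = 0.0878). OARD1 shares 75 exon bases with NFYA and stood at −0.04 (0.698). NFYC-AS1, antisense to the start of NFYC with 279 shared exon bases, stood at 0.07 (0.705), against −0.26 for NFYC. The readthrough gene ZHX1-C8orf76 stood at −0.29 (0.480), PPP1R3E at 0.07 (0.382) and BCL2L2 at 0.02 (0.830), none of them called. Of the 4 tested genes in the list of antisense, readthrough and overlapping transcripts edgeR called 0 and DESeq2 also called 0; C8orf76, which is neither antisense nor readthrough, was the only 1 with an unadjusted p under 0.05 in edgeR. No other symbol of the table overlaps NFYB. The remaining locations in GRCh38 are chr8:123248451-123275541 (minus strand) for ZHX1, chr8:122781394-122974512 (plus) for ZHX2, chr14:23272422-23299447 (minus) for HOMEZ, chr6:41072945-41099976 (plus) for NFYA, chr12:104117077-104138289 (minus) for NFYB and chr1:40691648-40771603 (plus) for NFYC.

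Across the 6 libraries, the protein-coding genes closest in pattern to ZHX3 were IQSEC1, LRP1 and TENM4. Likeness was the root-mean-square difference of centred log2 CPM over 6 libraries, among 9784 genes whose mean reached 10 CPM. It was 0.0407 for IQSEC1, an exchange factor for ARF proteins, 0.0411 for LRP1, an endocytic receptor, and 0.0435 for TENM4, a teneurin, against a median of 0.387. Their log2 fold changes were 0.75, 0.80 and 0.78. ZHX2 was closest to MIOX (0.0669), RIMS3 (0.0762) and DOK6 (0.0790, against a median of 0.268). NFYC was closest to SPRYD3 (0.0188), PDRG1 (0.0188) and VWA5A (0.0224; median 0.151), which are nearly flat patterns with a small drop. All these genes share the libraries and the group difference, and likeness says nothing more than that.

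In the zinc finger homeobox class as a whole, 3 of 13 tested genes rose and 0 fell, with a median log2 fold change of 0.03. Among all tested genes 7.11% were called higher and 4.98% lower. Besides ZHX3 these were TSHZ1, a teashirt family repressor, at 0.33 (edgeR adjusted p = 0.0232), and its relative TSHZ2 at 0.32 (0.00996). TSHZ2 had 20.5, 21.3 and 19.5 CPM in Empty 1, 2 and 3 and 25.4, 25.04 and 26.0 CPM in sgZHX3-3. Its groups did not overlap, but edgeR's adjusted p was 0.0694 without Empty 3 and 0.224 (log2 fold change 0.12) with an offset for gene span. TSHZ1 was not called when either Empty 2 or Empty 3, or either library 2 or library 3 of sgZHX3-3, was left out. Without both Empty 2 and 3 only 1 of the class, ZHX3, was called. In a list of 7 histone-fold genes that includes NFYB and NFYC, 1 fell, NFYC itself, and 0 rose (median −0.07). The relatives of NFYB and NFYC in that list were not called. These counts stand beside the same shares of all tested genes, 4.98% lower and 7.11% higher.

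Genes reported as targets or partners of ZHX proteins gave 5 tested genes of 8, of which 1 rose and 1 fell (2 rose without Empty 1). The shares over all tested genes were 7.11% higher and 4.98% lower. EFNB1, which encodes the ephrin-B1 ligand, rose by 0.64 (edgeR adjusted p = 0.000302). It had 23.3, 19.5 and 20.4 CPM in Empty and 31.4, 33.7 and 33.2 CPM in sgZHX3-3. CDC25A, a phosphatase that drives entry into S phase, fell by 0.42 (adjusted p = 0.00777), a call lost without Empty 2 and 3 (log2 fold change −0.20, adjusted p = 0.370). AFP, H19 and LPL had too few counts to test; H19 had 0 in every library.

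Known NF-Y target genes moved in different directions by group. Of 11 sterol genes 9 rose and 0 fell (against 7.11% and 4.98% of all tested genes), with a median of 0.35. DHCR7, the enzyme of the last step of cholesterol synthesis, had 57.8, 52.8 and 54.1 CPM in Empty 1, 2 and 3 and 71.6, 77.3 and 81.5 CPM in sgZHX3-3 (log2 fold change 0.49, edgeR adjusted p = 0.000516). The groups did not overlap, and Empty 1 was the highest Empty library. FDFT1 rose by 0.46 (0.000883), and SQLE and HMGCS1 by 0.41 each (0.000749 and 0.00123). With 1 library left out 7 to 9 of the 11 were called. Without both Empty 2 and 3 most of these calls were lost, those of DHCR7 (log2 fold change 0.41), FDFT1, SQLE and HMGCS1 among them.

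Of 7 endoplasmic reticulum stress genes, 4 fell and 0 rose (against 4.98% and 7.11% of all tested genes), with a median of −0.18. HSPA5, which encodes the chaperone BiP, had 1245, 1313 and 1372 CPM in Empty 1, 2 and 3 and 1042, 1066 and 1043 CPM in sgZHX3-3 (log2 fold change −0.32, edgeR adjusted p = 0.00219). Its groups did not overlap and Empty 1 was the nearest to sgZHX3-3. PDIA4 (−0.24, adjusted p = 0.0148), CALR (−0.20, 0.0271) and HSP90B1 (−0.18, 0.0483) were lower by less. With 1 library left out 1 to 4 were called, and without both Empty 2 and 3 edgeR called 0 of 7 (HSPA5 −0.24, adjusted p = 0.110; 4 of 7 had an unadjusted p under 0.05). The heat shock sum given above was also higher in Empty 2 and 3 than in Empty 1, and its part in the result was not tested. Of the 8 heat shock genes themselves 1 fell (HSPA6) and 0 rose (against 4.98% and 7.11% of all tested genes), with a median of −0.70. That count was 7 lower without Empty 1, 6 with DESeq2, and 0 with limma-voom or with any of the other 5 libraries left out.

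Of 14 cell cycle genes 4 rose and 3 fell (against 7.11% and 4.98% of all tested genes), with a median of 0.06. The mitotic kinase gene PLK1 rose by 0.67 (edgeR adjusted p = 0.000311), with 14.6, 13.8 and 14.3 CPM in Empty and 23.9, 23.7 and 20.4 CPM in sgZHX3-3. CCNB1 (0.46, 0.0063), which encodes cyclin B1, CDC20 (0.42, 0.00443) and CDC25B (0.23, 0.0142) also rose. TK1, the thymidine kinase gene used in S phase, fell by 0.83 (edgeR adjusted p = 5.32e-05). It had 36.2, 39.5 and 39.6 CPM in Empty and 22.8, 22.7 and 19.5 CPM in sgZHX3-3. The other 2 that fell were RRM2 and E2F1, which lie outside the naming rule and were named after their values were seen. With 1 library left out 3 to 6 were higher and 1 to 3 lower, and without both Empty 2 and 3 the counts were 1 and 1.

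**Figure D5:**
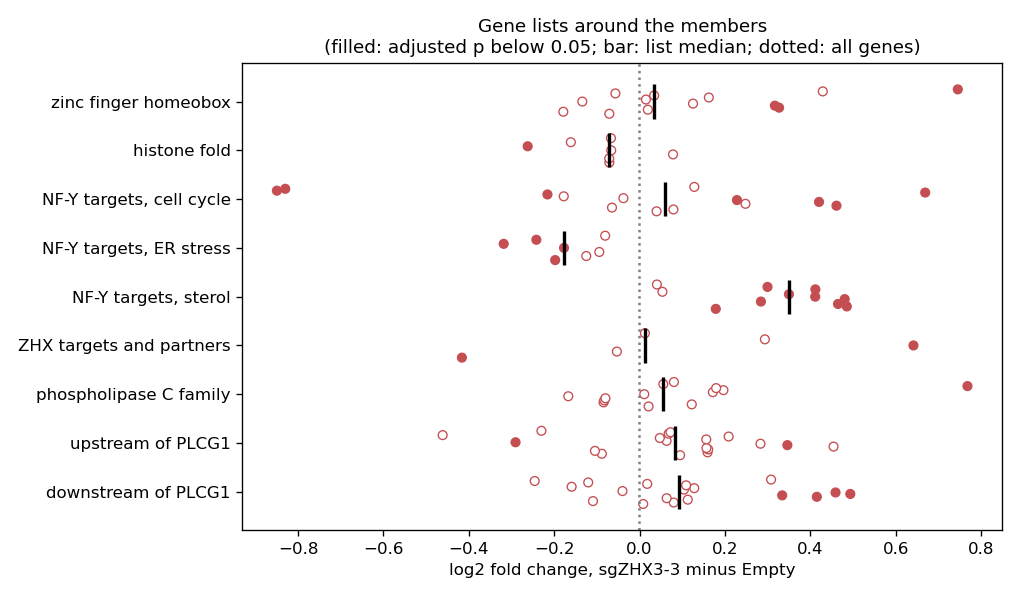
Log2 fold change (sgZHX3-3 minus Empty) of each tested gene in 9 of the lists, filled where called by edgeR, with the list median as a bar and the median of all tested genes as a dotted line. The sterol list has its median at 0.35 and the endoplasmic reticulum stress list at −0.18, and the dotted line is at −0.002.

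Around PLCG1, the phospholipase C family had 1 of 13 tested genes higher and 0 lower, with a median of 0.06. Among all tested genes 7.11% were higher and 4.98% lower, and this count and the upstream count below are near those shares. The gene called was PLCH2, a phospholipase C of the eta class, at 9.45, 9.09 and 9.16 CPM in Empty 1, 2 and 3 and 14.8, 16.4 and 16.0 CPM in sgZHX3-3 (log2 fold change 0.77, edgeR adjusted p = 0.000118). Its groups were well apart. Without sgZHX3-3 library 1 the family count was 3 higher, and without Empty 1 it was 2. Among 18 tested genes in the list upstream of PLCG1, 1 rose and 1 fell. The growth factor receptor gene FGFR3 stood at 0.35 (edgeR adjusted p = 0.00428), a call lost without Empty 2 and 3 (0.22). The adaptor gene GAB1 stood at −0.29 (0.0478), a call lost when any 1 of the 5 libraries other than Empty 1 was left out. Without Empty 1 the counts were 4 higher and 2 lower.

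Downstream of PLCG1, 4 of 18 tested genes rose and 0 fell (against 7.11% and 4.98% of all tested genes), with a median of 0.09. They were the 3 inositol trisphosphate receptors, which are the calcium channels opened by the product of the enzyme, and PRKCA, a protein kinase C activated by diacylglycerol. ITPR3 had 399, 423 and 401 CPM in Empty 1, 2 and 3 and 540, 572 and 609 CPM in sgZHX3-3 (log2 fold change 0.49, edgeR adjusted p = 0.000221). PRKCA had 159, 165 and 153 CPM in Empty and 213, 224 and 218 CPM in sgZHX3-3 (0.46, 0.000208). In both genes every sgZHX3-3 library was above every Empty library. ITPR1 rose by 0.42 (0.000883) and ITPR2 by 0.33 (0.00369). The count of 4 held with any 1 library left out and without both Empty 2 and 3, but ITPR2 stood at 0.15 (adjusted p = 0.106) once a trend with gene span was removed. PLCG1 itself was not called.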

How the data were processed

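Total RNA of 6 EndoC-βH1 cultures was prepared by NucleoSpin RNA kit, and stranded libraries were made by NEBNext Ultra Directional chemistry, per the labels' protocols. Alignment used STAR, counting used featureCounts and the build was hg38, per the submitters' processing notes (versions, gene annotation, strand setting and multi-mapping: not given in the sources used here). Unnormalised whole-number counts were deposited for each gene symbol in each library, per the file headers. Columns named Ctrl were taken as the Empty samples, the only control group in the labels.

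Everything else was computed from these counts. edgeR 4.0.16 (filterByExpr with a minimum count of 10 and a total of 15, TMM factors of 0.984 to 1.02, robust quasi-likelihood test on group alone, Benjamini-Hochberg adjustment over 16199 genes) gave fold changes and adjusted p-values, and standard errors were the fold change divided by the root of F. The common biological coefficient of variation was 6.91%. Positions and lengths are from GENCODE 29, where 23900 of 26485 symbols were found, and promoters are from RefSeq. limma 3.58.1, DESeq2 1.42.0, R 4.3.3, Python 3.11.15 and matplotlib 3.10.9 were also used. Ratios within libraries were tested with exact permutation tests over samples. On simulated counts of 16095 genes for this comparison, 200 genes were changed. The share called was 56% at a 1.25-fold and 88% at a 1.5-fold change, and 13 of 185 calls were false. Each simulated library was drawn independently, and none was made to stand apart from its group as Empty 1 did in heat shock genes. These shares may therefore not hold for the real counts.

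The 8 genes, the 11 gene lists and the tests were chosen with earlier results of these data known. By the naming rule the text names the 8 genes, up to 5 called genes of smallest adjusted p in each list, tested neighbours and overlapping genes, and the 3 genes closest in pattern to ZHX3, ZHX2 and NFYC. Values of some genes are not reported here. The 16 alternatives were other scalings (RLE, library totals), other filters (none, 1 CPM in 3 libraries), DESeq2, limma-voom, a replicate block, offsets for gene span and for transcript length with GC content, each library left out, and Empty 2 and 3 left out together.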

Additional observations from a re-analysis of the deposited data

How the results depend on the processing

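The ZHX3 rise kept its direction and its call under all 16 alternatives. Without Empty 2 and 3 together, edgeR called 209 genes higher and 40 lower in place of 1151 and 807, and with any 1 library left out 474 to 1792 higher and 184 to 1499 lower. Library totals in place of TMM gave 1272 lower. The replicate block gave 516 higher and 239 lower and took the call from NFYC (−0.26, adjusted p = 0.0755); same-numbered libraries did not deviate together (correlations −0.138, 0.0685 and −0.142, against −0.149 to 0.233 for different numbers), so the numbers were not taken to pair the samples. NFYC was also not called without Empty 2 and 3 (−0.25), and ran from −0.29 to −0.25 with 1 library left out. PLCG1 was called with DESeq2 (0.17) and with the gene span offset (0.20), ran from 0.13 to 0.21 with 1 library left out, and was 0.084 with the length and GC offset. Signs turned for values near 0: ZHX1 (0.030) and NFYB (0.067) with the length and GC offset, HOMEZ (−0.017) with library totals, NFYA (0.030) without Empty 2 and 3, and NFYB from −0.13 to 0.022 with 1 library left out. So did the log2 ratio of NFYA to NFYB, at 0.18 without Empty 2 and 3 and −0.12 to 0.052 with 1 library left out. Among other named genes the sign turned for BCL2L2 (−0.013) and TOP1 (−0.00995) with library totals, TOP1 with 1 library left out (−0.00783 to 0.0579), OARD1 (0.042) with the length and GC offset, and ZHX1-C8orf76 (0.15) without Empty 2 and 3. The cause was not tested. Of 734 alternative values for 46 other named genes, 645 kept their direction and their side of the threshold. Few counts limit ZHX2.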

Other observations

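CCAAT was common in the promoters of the lists of NF-Y targets. These lists were chosen as genes with NF-Y-bound promoters, so a high share follows from the choice. By the same search it was found for 13 of 14 cell cycle genes, 7 of 7 endoplasmic reticulum stress genes and 7 of 8 sterol genes with a matched window, groups that differed in direction in the report. Among all 11548 tested genes with a window, 42.4% held at least 1 CCAAT or ATTGG. Of these genes 7.06% were called higher and 6.67% lower by edgeR, with a median log2 fold change of −0.01. Of the genes without a match 7.17% were called higher and 4.57% lower, with a median of −0.002. These shares are descriptions and were not tested.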
